A study of Homo sapiens with 9 samples.

Results

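The genes described here encode the nuclear subunits of respiratory complexes II and III and of complex V, the ATP synthase, together with their dedicated assembly factors. They were chosen by symbol alone: protein-coding genes named SDHA to SDHD or SDHAF for complex II, UQCR, UQCC or CYC1 for complex III, and ATP5F1, ATP5M, ATP5P or ATP5IF1 for complex V. The rule took 44 of the 78986 genes listed, of which 20120 are protein-coding. Complex II supplied 8 members (4 subunits and 4 SDHAF assembly factors), complex III 16 (10 subunits and 6 UQCC assembly factors) and complex V 20 (18 subunits, the inhibitor ATP5IF1 and the readthrough gene ATP5MF-PTCD1). Another 71 genes with matching symbols were not protein-coding, 69 of them pseudogenes, and were not members.

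RNA was sequenced from HEK293T cells, a human embryonic kidney line that the labels call HEK 293 and describe as epithelial. The cells had been transduced with lentivirus to overexpress WT p53, p53 G245S or p53 R273H, with 3 biological replicates of each. All 3 lines were grown under puromycin, so the reference is a line that overexpresses WT p53 and not the parental line, which was not analysed here. HEK293T carries an antigen that blocks its own p53. The sources used here name neither the promoter that drives the transgenes nor whether a line is 1 clone.

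Complex II (succinate dehydrogenase) oxidises succinate and passes the electrons to ubiquinone. Complex III takes them from ubiquinol to cytochrome c and pumps protons, and complex V lets the protons flow back through a turning ring of c subunits to make ATP. Complex II is wholly encoded in the nucleus. Complex III takes cytochrome b from the mitochondrial gene MT-CYB, and complex V takes subunits a and A6L from MT-ATP6 and MT-ATP8.

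The 8 libraries entered into the fits held 7325514 to 9667306 counts. WT replicate 3 held 1486315 and was left out for its depth, which fell short of a limit of 4096044 counts (0.5 of the other libraries' median). It also stood apart in its markers. The 5 epithelial markers (EPCAM, CDH1, KRT8, KRT18 and KRT19) summed to 267 CPM there and to between 73.4 and 84.6 CPM in the others, where EPCAM, CDH1 and KRT19 were each at 3.42 CPM or less and most of the sum was KRT18. The 2 immune markers (PTPRC and CD74) summed to 9.84 CPM there and to between 0.492 and 1.78 CPM in the others. Its fibroblast and mesenchymal or neural sums lay within the range of the others. Its endothelial sum, 0.703 CPM against at most 0.547 CPM, was below the 2.02 CPM that 3 counts made there. Levels are given in CPM, counts corrected for library size with TMM factors. The values of WT replicate 3 are given apart. The share of members in a fitted library ran from 1.13% to 1.28% of its counts. Bulk RNA cannot tell fewer transcripts per cell from fewer cells of a kind.

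No member passed an adjusted p of 0.05 in any comparison. G245S was compared with WT over 15893 genes, of which 0.126% passed (edgeR's quasi-likelihood test, p adjusted by the Benjamini-Hochberg method). R273H was compared with WT over 16022 genes, of which 0.137% passed. Between R273H and G245S, 0 of 15614 genes passed, or 0%, and 741 had an unadjusted p under 0.05, while DESeq2 called 1 gene. All 44 members were tested each time, and 0 of them had an unadjusted p under 0.05 in edgeR's fit, where the share of all genes was 6.66% in G245S, 6.11% in R273H and 4.75% between the mutants. DESeq2 likewise called 0 members. Both mutants share the same 2 WT libraries, so their comparisons with WT are not independent.

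The sequences below show where members differ from their closest relatives, since reads from such stretches decide which gene is credited. Subunit c, the rotor of complex V, comes from 3 genes whose precursors of 136, 141 and 142 residues (ATP5MC1, ATP5MC2 and ATP5MC3) end in the same 77 residues. Over the 231 coding bases of that shared end, ATP5MC1 and ATP5MC2 were 88.3% identical, and ATP5MC3 was 80.1% identical to each. The first 30 of these coding bases are shown from the GENCODE transcripts (GRCh38), with capitals at the 11 positions where the 3 genes are not all alike.
ATP5MC1: TCCCgGgacatTgaCacAgcAgccaaGttT
ATP5MC2: TCAAgGgacatCgaCacAgcAgccaaGttC
ATP5MC3: AGCAgAgacatTgaTacTgcTgccaaAttT

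UQCRH, the hinge protein of complex III, has an almost identical copy, UQCRHL. Their coding sequences of 273 bases differ at 4 bases and their proteins of 91 residues at 3 residues. Coding bases 138 to 167 are shown because they hold the most differences, 2, in capitals.
UQCRH: ccgggagcggctagagctctGtgatgagcG
UQCRHL: ccgggagcggctagagctctAtgatgagcA

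Reads that fit several genes were shared as fractions, and 34 of the 44 members had a value that was not whole in at least 1 library. The split between UQCRH and UQCRHL, and between other close copies, is therefore uncertain.

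The median level of the members differed widely between the complexes, which also differ in their share of assembly factors. Over the 8 fitted libraries the median member was at 55.1 CPM in complex II, 187 CPM in complex III and 337 CPM in complex V. For subunits alone the medians were 122, 346 and 337 CPM, so complexes III and V were close in CPM. The 6 UQCC factors had a median of 74.8 CPM. Levels were also taken per kilobase of the Ensembl canonical transcript, which suits comparison between genes only if reads cover whole transcripts. On that scale the medians of all members were 37.6, 87.3 and 399 CPM per kb, and those of subunits alone 87.9, 174 and 399 CPM per kb. Where reads lie along the transcript is not stated, so long annotated ends lower the second scale. UQCRB, a small subunit of complex III, was at 319 CPM but only 37.7 CPM per kb over a canonical transcript of 8459 bases.

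**Figure D1:**
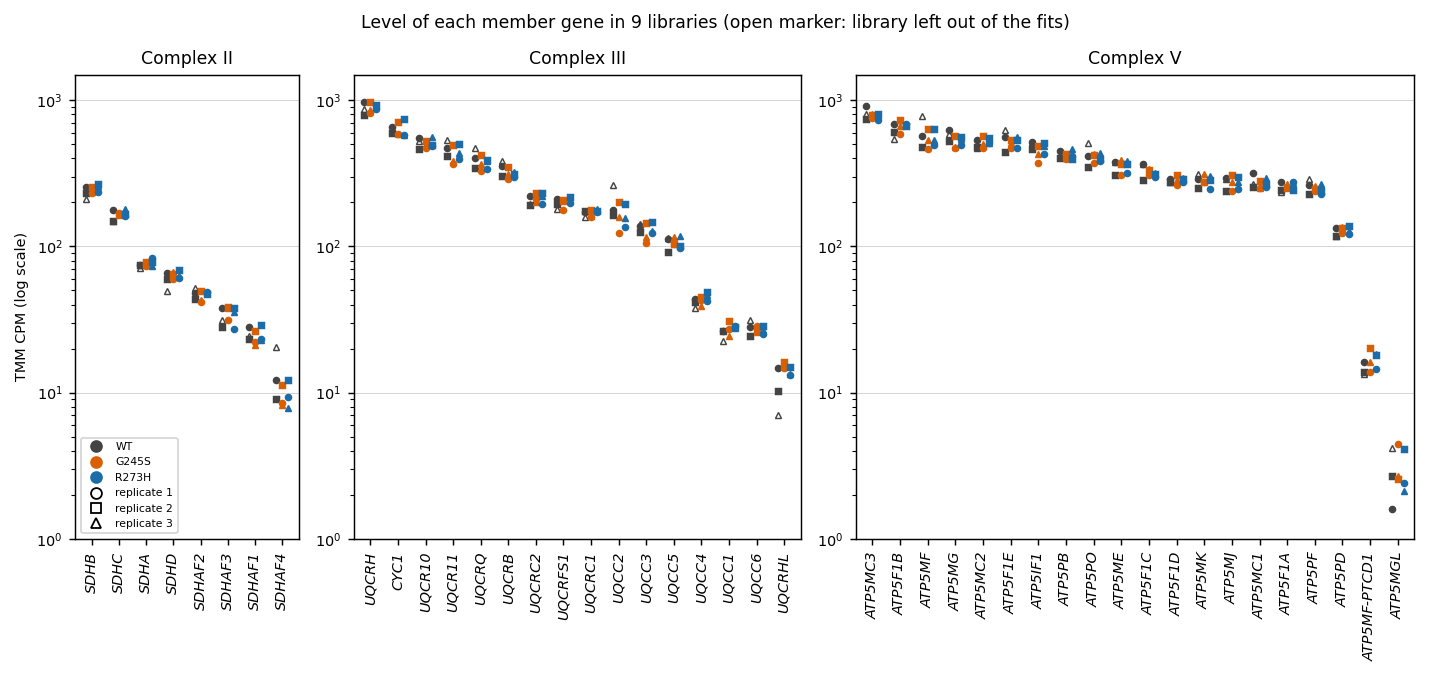
TMM CPM (log axis) of the 44 members in 9 libraries, by complex and ordered by mean level; colours are the groups, shapes the replicates, and open triangles WT replicate 3, left out of the fits. Apart from ATP5MF-PTCD1 and ATP5MGL, complex V genes sit between 118 and 915 CPM in the fitted libraries, and the WT, G245S and R273H markers of a gene overlap almost everywhere.

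In complex II, all 4 subunits were above all 4 assembly factors in CPM, but per kb SDHA, at 28.3 CPM per kb, was below SDHAF2 and SDHAF3, at 39.1 and 36.1 CPM per kb. SDHB, the iron-sulfur subunit, was highest per kb of its complex at 243 CPM per kb. It stood at 254 and 234 CPM in WT, at 234, 256 and 237 CPM in G245S, and at 236, 267 and 257 CPM in R273H, with 212 CPM in WT replicate 3. The 3 groups overlapped. SDHC and SDHD, the membrane anchors, averaged 168 and 63.9 CPM, and SDHA, the flavoprotein that binds succinate, 76.3 CPM. Among the assembly factors, SDHAF2, which helps attach the flavin to SDHA, averaged 46.4 CPM, and SDHAF3 and SDHAF1, which serve the iron-sulfur subunit, 34.4 and 24.6 CPM. The median of the 4 factors was 29.0 CPM per kb, against 87.9 CPM per kb for the 4 subunits.

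SDHAF4, which assists the assembly of flavinated SDHA, was the lowest of complex II at 8.32 CPM per kb. Its levels were 12.3 and 8.99 CPM in WT, 8.56, 11.3 and 8.25 CPM in G245S, and 9.33, 12.2 and 7.84 CPM in R273H, with 20.4 CPM in WT replicate 3. Replicates of each line differed by more than the lines did, and the groups overlapped. It had the lowest log2 fold change of all members in both mutants, −0.19 in G245S (SE 0.185, 95% interval −0.59 to 0.21, edgeR's adjusted p = 0.904) and −0.14 in R273H (SE 0.192, interval −0.55 to 0.27, edgeR's adjusted p = 0.994). Without WT replicate 1 both values turned positive, to 0.065 and 0.11.

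In complex III, UQCRH was the most abundant member of all 44 on both scales, at 891 CPM and 1660 CPM per kb. Its levels were 966 and 790 CPM in WT, 813, 974 and 861 CPM in G245S, and 872, 935 and 921 CPM in R273H, with 865 CPM in WT replicate 3. The WT libraries enclosed the mutant values but for the 974 CPM of G245S replicate 2. CYC1 (cytochrome c1) averaged 629 CPM, the Rieske protein UQCRFS1 202 CPM, and the core proteins UQCRC2 and UQCRC1 213 and 172 CPM. The small subunits UQCR10, UQCR11 and UQCRQ averaged 508, 434 and 372 CPM.

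UQCRHL was at 14.7 and 10.3 CPM in WT, 14.8, 16.2 and 15.4 CPM in G245S, and 13.1, 15.0 and 13.4 CPM in R273H, with 7.03 CPM in WT replicate 3. It was the 1 member whose G245S libraries were all above both fitted WT libraries, narrowly so in G245S replicate 1, and 11.3% of all genes tested were higher in this way. None was lower in this way, against 10.8% of all genes. Its log2 fold change in G245S was 0.30 (SE 0.156, interval −0.031 to 0.64, edgeR's adjusted p = 0.771, unadjusted p = 0.0719), the smallest p of any member. It was 0.60 without WT replicate 1 and 0.074 without WT replicate 2. In R273H against G245S it was −0.17 (SE 0.114, interval −0.41 to 0.078, edgeR's adjusted p = 0.994). UQCRHL made up between 1.28% and 1.79% of the counts of the UQCRH pair in the 8 libraries. The share was 1.39% ± 0.162 (SD, n = 2) in WT, 1.73% ± 0.0773 (SD, n = 3) in G245S and 1.50% ± 0.0784 (SD, n = 3) in R273H.

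The 6 UQCC factors, which support the making and insertion of cytochrome b, ranged from 26.9 to 164 CPM. UQCC1 was lowest of complex III at 12.1 CPM per kb. It stood at 26.3 CPM in both fitted WT libraries, at 27.4, 31.1 and 24.4 CPM in G245S, and at 28.5, 28.3 and 27.6 CPM in R273H, with 22.5 CPM in WT replicate 3. It was the 1 member with every R273H library above the fitted WT libraries, a pattern that 10.2% of all genes had. The reverse held for none of the members and 10.5% of all genes. Its log2 fold change was 0.096 (SE 0.102, interval −0.12 to 0.31, edgeR's adjusted p = 0.981). UQCC3, which stabilises newly made cytochrome b, was among the 2 highest members between the mutants. It was at 137 and 125 CPM in WT, 106, 146 and 116 CPM in G245S, and 124, 148 and 127 CPM in R273H, with 143 CPM in WT replicate 3. G245S replicate 2 lay within the R273H range, and the log2 fold change of R273H against G245S was 0.11 (SE 0.107, interval −0.12 to 0.34, edgeR's adjusted p = 0.994). It was 0.018 without G245S replicate 1 and 0.25 without G245S replicate 2.

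In complex V, the F1 head and central stalk (ATP5F1A to ATP5F1E), which carry the catalytic sites, ranged from 261 to 666 CPM. Their 2 extremes were ATP5F1A and ATP5F1B, subunits alpha and beta, which stand in equal number in the enzyme. Per kb they were at 45.3 and 378 CPM per kb, and the canonical transcript of ATP5F1A is 5761 bases long. The peripheral stalk (ATP5PB, ATP5PD, ATP5PF and ATP5PO), which holds the head still, ranged from 129 to 420 CPM. ATP5MF, subunit f of the membrane part, was highest per kb of complex V at 1226 CPM per kb. Its levels were 570 and 478 CPM in WT, 464, 635 and 533 CPM in G245S, and 495, 634 and 537 CPM in R273H, with 782 CPM in WT replicate 3. In both mutants replicate 2 was the highest and replicate 1 the lowest.

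The 3 c-ring genes kept nearly the same division in every library. ATP5MC3 supplied 48.3% to 51.8% of their summed counts, ATP5MC2 30.3% to 34.6% and ATP5MC1 16.1% to 18.4%. By group, ATP5MC3 supplied 51.1% ± 0.953 (SD, n = 2) in WT, 50.4% ± 1.81 (SD, n = 3) in G245S and 49.3% ± 0.471 (SD, n = 3) in R273H. These shares are of counts and not of length-scaled levels. Per kb the order was different, with ATP5MC2 at 816, ATP5MC1 at 420 and ATP5MC3 at 306 CPM per kb.

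ATP5MC3 was at 915 and 745 CPM in WT, 759, 793 and 805 CPM in G245S, and 728, 806 and 788 CPM in R273H. ATP5MC2 was at 536 and 477 CPM in WT, 470, 568 and 503 CPM in G245S, and 511, 550 and 510 CPM in R273H. ATP5MC1 was at 316 and 256 CPM in WT, 251, 280 and 252 CPM in G245S, and 253, 269 and 292 CPM in R273H. WT replicate 1 was the highest library for ATP5MC1 and ATP5MC3 and G245S replicate 2 for ATP5MC2. WT replicate 3 was at 800, 471 and 269 CPM in the same order.

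**Figure D2:**
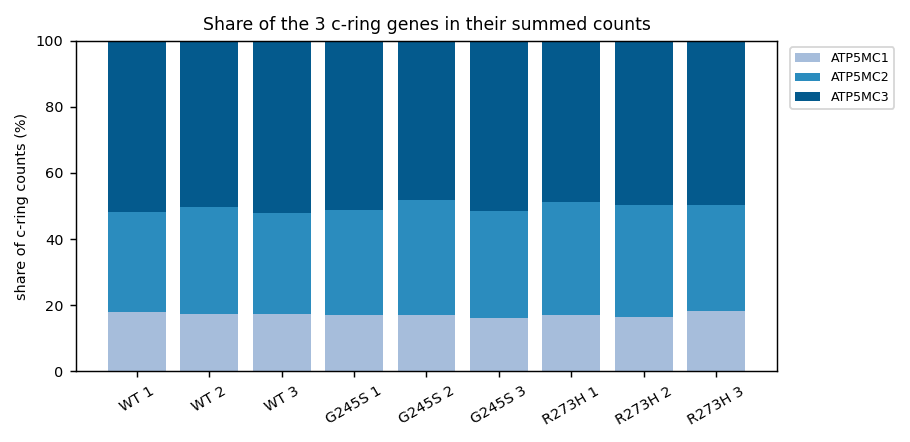
Share (%) of ATP5MC1, ATP5MC2 and ATP5MC3 in the summed deposited counts of the 3 genes, 1 stacked bar per library. ATP5MC3 lies between 48.3% and 51.8% in the 8 fitted libraries and at 52.0% in WT replicate 3.

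ATP5IF1, the inhibitor that stops the ATP synthase from running backwards, was at 518 and 467 CPM in WT, 374, 489 and 429 CPM in G245S, and 427, 511 and 487 CPM in R273H, with 517 CPM in WT replicate 3. G245S replicates 1 and 3 lay below both WT libraries and G245S replicate 2 between them. The log2 fold change was −0.19 in G245S (SE 0.115, interval −0.43 to 0.058, edgeR's adjusted p = 0.801). It was the highest of all members between the mutants, at 0.13 (SE 0.101, interval −0.080 to 0.35, edgeR's adjusted p = 0.994). Leaving out 1 library moved it between 0.045, without G245S replicate 1, and 0.23, without G245S replicate 2, and moved the value in G245S between −0.29, without G245S replicate 2, and −0.099, without G245S replicate 1.

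ATP5MG, subunit g, was at 630 and 527 CPM in WT, 471, 572 and 479 CPM in G245S, and 495, 557 and 547 CPM in R273H, with 593 CPM in WT replicate 3. The log2 fold change in R273H was −0.12 (SE 0.105, interval −0.34 to 0.11, edgeR's adjusted p = 0.970), among the 2 lowest. Without WT replicate 1 it was 0.021. Its copy ATP5MGL was the least abundant member, with 14 to 44 counts in a fitted library. Its levels were 1.61 and 2.7 CPM in WT, 4.48, 2.58 and 2.71 CPM in G245S, and 2.42, 4.10 and 2.14 CPM in R273H, with 4.22 CPM in WT replicate 3.

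At this depth ATP5MGL had the widest intervals and the highest log2 fold changes against WT, 0.64 in G245S (SE 0.347, interval −0.10 to 1.39, edgeR's adjusted p = 0.784) and 0.42 in R273H (SE 0.354, interval −0.34 to 1.17, edgeR's adjusted p = 0.970). Single libraries set these sizes. The G245S value was 0.31 without WT replicate 1 or without G245S replicate 1 and 1.04 without WT replicate 2. The R273H value was 0.076 without WT replicate 1, 0.10 without R273H replicate 2, 0.81 without WT replicate 2, and −0.076 with WT replicate 3 in place of WT replicate 1. Between the mutants it was −0.23, the lowest of all (SE 0.296, interval −0.86 to 0.40, edgeR's adjusted p = 0.994), and 0.099 without G245S replicate 1. ATP5MF-PTCD1, whose transcripts run from ATP5MF into PTCD1, was at 16.2 and 13.7 CPM in WT, 13.8, 20.1 and 16.1 CPM in G245S, and 14.5, 18.0 and 18.3 CPM in R273H, with 13.4 CPM in WT replicate 3. It overlaps ATP5MF, so its count is uncertain, and it held 2.76% to 3.30% of their summed counts. Its log2 fold change in R273H was 0.17 (SE 0.141, interval −0.13 to 0.47, edgeR's adjusted p = 0.970), and was 0.061 without WT replicate 2 and 0.30 without WT replicate 1.

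The intervals describe the fits reported and are not limits on other choices of libraries. With WT replicate 3 in place of WT replicate 2, SDHAF4 was −0.62 in G245S and −0.56 in R273H, outside its intervals. With it in place of WT replicate 1, UQCRHL was 0.69 in G245S, also outside its interval. The 95% interval lay within ±0.5 on the log2 scale, a 1.41-fold difference, for 41 of 44 members in G245S, 42 in R273H and 43 between the mutants. Of all genes tested, 9329 of 15893, 9563 of 16022 and 10490 of 15614 had such an interval. The median SE of members was 0.110, 0.104 and 0.087, against 0.138, 0.136 and 0.121 over all genes. The members outside were SDHAF4, UQCRHL and ATP5MGL in G245S, SDHAF4 and ATP5MGL in R273H, and ATP5MGL between the mutants. The intervals are not adjusted for the number of members.

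**Figure D3:**
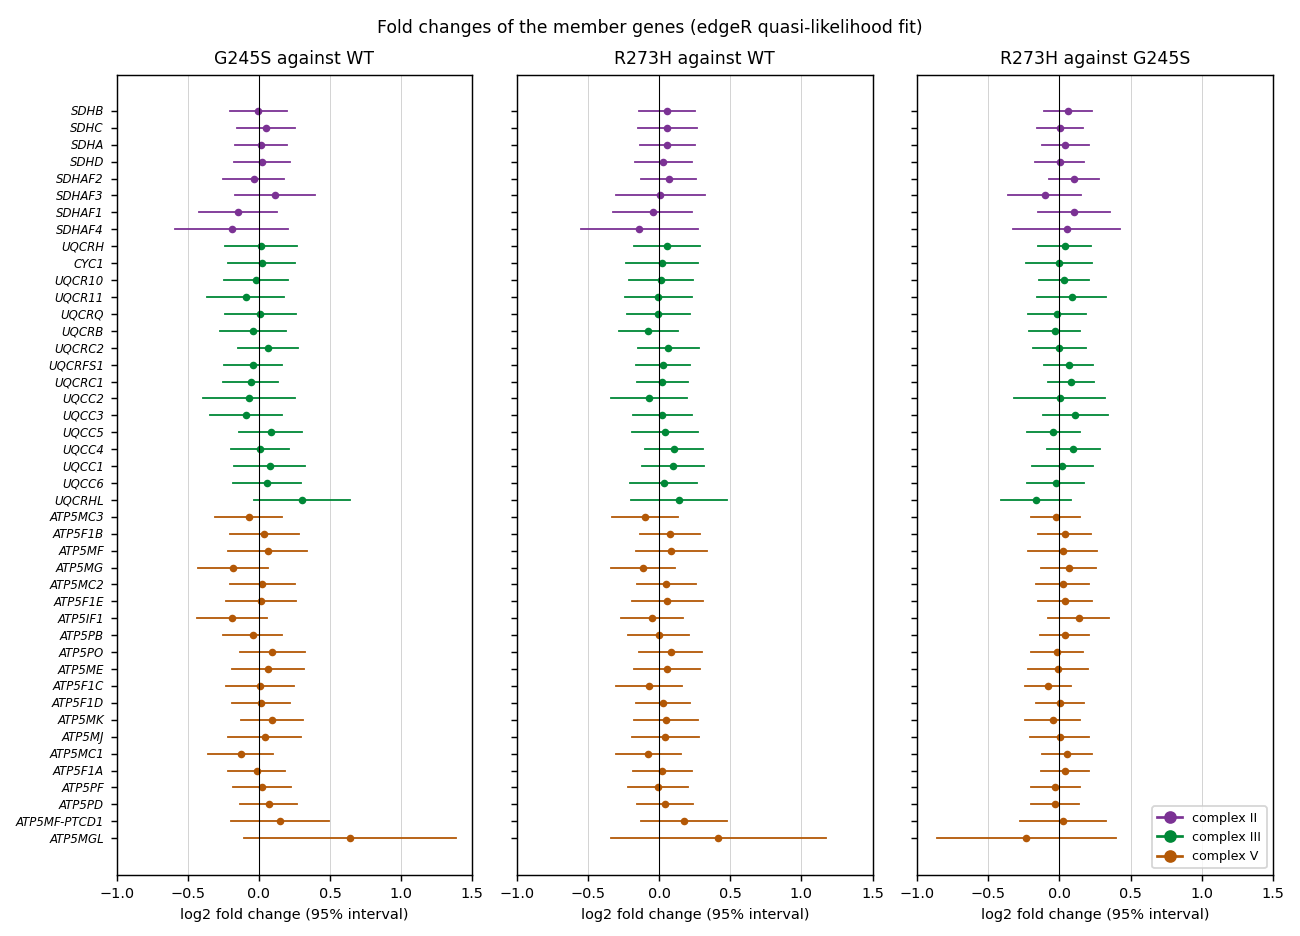
log2 fold change (points) with 95% interval (lines) of each member in the 3 comparisons, from edgeR's fits, with complexes in separate colours. Every interval crosses 0; the widest belong to ATP5MGL, at 0.64, 0.42 and −0.23.

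The complexes were then set against each other. In G245S the median log2 fold change was 0.0056 for complex II, 0.0085 for complex III and 0.024 for complex V, where the median of all genes tested was 0.0034. In R273H the medians were 0.043, 0.024 and 0.041, with 0.0023 for all genes. Between the mutants they were 0.046, 0.010 and 0.014, with −0.0048 for all genes. These are small beside the spread of the complex medians between replicates, whose pooled SD was between 0.090 and 0.12 on the log2 scale.

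Of the 44 members, 27 (61.4%) were above 0 in G245S, 31 (70.5%) in R273H and 29 (65.9%) between the mutants. The shares of all genes tested were 50.8%, 50.7% and 48.3%. By complex, 4 of 8 members of complex II, 9 of 16 of complex III and 14 of 20 of complex V were above 0 in G245S. In R273H they were 6 of 8, 12 of 16 and 13 of 20, and between the mutants 7 of 8, 10 of 16 and 12 of 20. Members are not independent of each other, and both mutants share the same 2 WT libraries. The 37 complex I subunits had medians of −0.024, 0.018 and 0.035, and the 11 complex IV subunits of 0.018, 0.012 and 0.0097. No subunit of either passed an adjusted p of 0.05 in edgeR's fits. At an unadjusted p under 0.05 there was 1 complex I subunit in R273H, where 6.11% of all genes were at that level in edgeR's fit, and none in the other comparisons.

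Within each library, the complexes were also compared after each gene was set relative to its own mean over the 8 libraries. This centring holds the differences near 0 over all libraries, so only the groups can be compared. On this scale, complex V minus complex II was −0.0067 ± 0.042 (SD, n = 2) in WT, 0.012 ± 0.030 (SD, n = 3) in G245S and −0.022 ± 0.061 (SD, n = 3) in R273H, on the log2 scale. Complex V minus complex III was −0.018 ± 0.037 in WT, −0.0036 ± 0.061 in G245S and −0.0088 ± 0.043 in R273H. Complex III minus complex II was 0.011 ± 0.0057, 0.016 ± 0.040 and −0.014 ± 0.018. The libraries of the groups overlapped in each of these, except that complex III minus complex II lay between 0.0074 and 0.015 in the 2 fitted WT libraries and at or below 0.0068 in R273H. WT replicate 3 stood outside the other libraries here, with complex V 0.21 above complex II.

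The 3 complexes did differ between replicates of one line, and they did so together in the 3 pairs named first. WT replicate 1 was above WT replicate 2 in 41 of 44 members, with median log2 ratios of 0.19 for complex II, 0.19 for complex III and 0.22 for complex V. G245S replicate 2 was above G245S replicate 1 in 40 members, and R273H replicate 2 above R273H replicate 1 in 38. The median log2 ratio of all members was 0.20, 0.19 and 0.18 in these 3 pairs.

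In the other pairs G245S replicate 3 was above replicate 1 in 36 members, G245S replicate 2 above replicate 3 in 32, R273H replicate 3 above replicate 1 in 36, and R273H replicate 2 above replicate 3 in 26. Of 16277 genes tested, between 49.8% and 52.4% were higher in the library named first in these 7 orders. Abundant genes in general followed the same order to a lesser degree in 6 of the 7. Of the 1889 genes at 100 CPM or more, 73.1% were higher in WT replicate 1 than in WT replicate 2, as were 31 of the 32 members at that level. In the G245S and R273H pairs named first, the shares were 71.3% and 58.9%, with 30 and 29 of the 32 members. In the other pairs, in the order given, they were 66.2%, 64.4%, 65.6% and 48.3%, with 30, 22, 29 and 16 of the 32 members. Members are not independent of each other, and no test was made of these counts. In the other pairs the complexes moved less alike. For complexes II, III and V the median log2 ratio of G245S replicate 1 to replicate 3 was −0.017, −0.080 and −0.12. For G245S replicate 2 to replicate 3 it was 0.086, 0.19 and 0.077. For R273H replicate 1 to replicate 3 it was −0.022, −0.099 and −0.15, and for R273H replicate 2 to replicate 3 it was 0.091, 0.076 and −0.025.

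The medians by library show the order of the replicates in each complex. Relative to the mean of the 8 libraries, complex V was at 0.088 and −0.12 in WT, −0.11, 0.065 and 0.00043 in G245S, and −0.11, 0.045 and 0.059 in R273H, on the log2 scale. Complex III was at 0.081 and −0.075 in WT, −0.11, 0.13 and −0.053 in G245S, and −0.087, 0.090 and 0.020 in R273H. Complex II was at 0.065 and −0.083 in WT, −0.11, 0.072 and −0.046 in G245S, and −0.067, 0.12 and 0.014 in R273H. Complexes II and III had the same highest and lowest library in every line, as had the subunits of complexes I and IV. Complex V differed only in R273H, where replicate 3 was its highest.

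**Figure D4:**
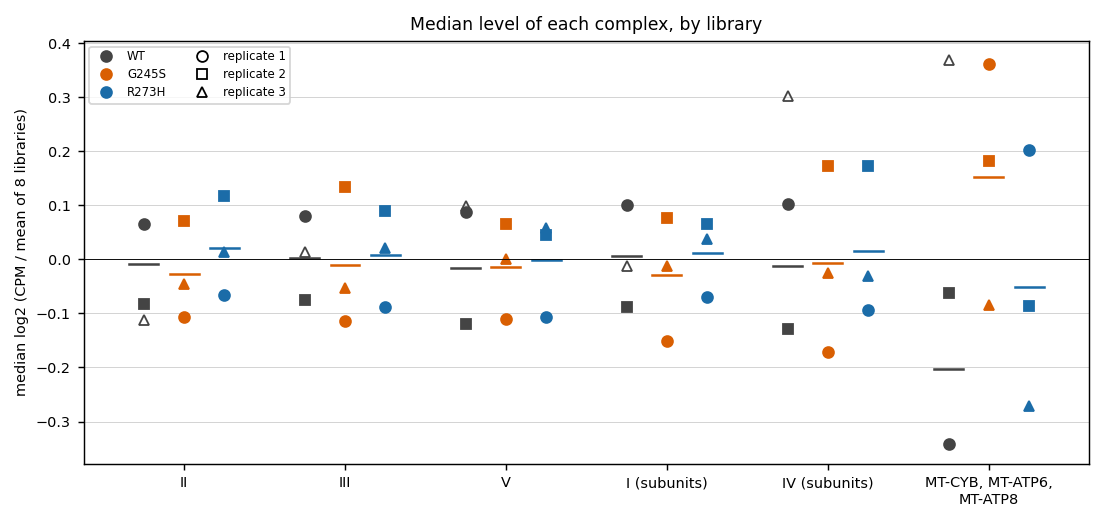
Median log2 ratio to the mean of 8 libraries, per library, for complexes II, III and V, for the subunits of complexes I and IV and for 3 mitochondrially encoded partners; short lines are group means of the fitted libraries. Complexes II, III and V lie between −0.12 and 0.13 in the 8 fitted libraries, while the mitochondrial genes range from −0.34 to 0.36.

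The mitochondrially encoded partners did not follow. MT-CYB was at 2707 and 3285 CPM in WT, 4408, 3892 and 3238 CPM in G245S, and 3947, 3233 and 2745 CPM in R273H, with 4283 CPM in WT replicate 3. MT-ATP6 was at 4957 and 5714 CPM in WT, 8350, 7334 and 6210 CPM in G245S, and 7423, 5849 and 5297 CPM in R273H, with 8253 CPM in WT replicate 3. WT replicate 1, where nuclear members were high, was the lowest for both, and the first replicates of both mutants, where nuclear members were low, were the highest of their lines. WT replicate 3 was among the highest of all libraries for both.

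Neither passed the adjusted threshold. In G245S the log2 fold change was 0.37 for MT-CYB (SE 0.145, edgeR's adjusted p = 0.684, unadjusted p = 0.0237) and 0.46 for MT-ATP6 (SE 0.145, edgeR's adjusted p = 0.562, unadjusted p = 0.00693). In R273H they were 0.15 and 0.22, with edgeR's adjusted p = 0.976 and 0.945. When WT replicate 3 was added to the fits, the values were 0.17 and 0.21 in G245S (edgeR's adjusted p = 0.903 and 0.883) and −0.050 and −0.028 in R273H. MT-CYB in G245S was 0.24 without WT replicate 1 and 0.51 without WT replicate 2, and MT-ATP6 was 0.37 and 0.56. MT-ATP8, which overlaps MT-ATP6, was at 185 and 256 CPM in WT, 211, 171 and 70.7 CPM in G245S, and 175, 192 and 196 CPM in R273H, with 264 CPM in WT replicate 3. G245S replicate 3 was the lowest by far for MT-ATP8, and the log2 fold change in G245S was −0.53 (SE 0.290, edgeR's adjusted p = 0.784). It was −0.29 without WT replicate 2, −0.74 without WT replicate 1 and −0.62 with all 3 WT libraries. In R273H the value was −0.23 (edgeR's adjusted p = 0.878), and 0.019, −0.44 and −0.31 with these choices in the same order. Counts of these overlapping genes are uncertain.

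Other genes of the pathway were listed by function. Of 11 further assembly factors, 8 neighbouring enzymes and carriers and 9 regulators of nuclear respiratory genes, none passed an adjusted p of 0.05 in edgeR's fits. At an unadjusted p under 0.05 there were 2 regulators in G245S, 1 in R273H, and 1 assembly factor between the mutants. The shares of all genes at that level were 6.66%, 6.11% and 4.75% in edgeR's fits. The neighbouring enzymes and carriers were below 0 in 7 of 8 cases in each mutant, with medians of −0.078 and −0.081. Of all genes tested, 7820 of 15893 were below 0 in G245S and 7903 of 16022 in R273H. Both comparisons use the same 2 WT libraries, and between the mutants 5 of the 8 were above 0.

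No member had all its R273H libraries above or below all its G245S libraries, whereas 4.65% of all genes were higher and 4.36% lower in this way.

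Short letter motifs stood more often in member promoters than in promoters in general, though each in a minority of members. Nuclear respiratory genes are commonly bound by NRF1, by ETS factors such as GABPA, and by YY1. RefSeq promoter windows on GRCh38.p14, from 250 bases before to 50 after the start, matched 33 of the 44 members, and were searched on both strands. The NRF1 letters (GCGC, then A, any base and GCGC again) stood in 15 of 33 members, or 45.5%, against 9.97% of the promoters of genes tested and 5.78% of all 35116 promoters. It stood in 4 of 7 members of complex II, 7 of 12 of complex III and 4 of 14 of complex V. CCGGAAG, for ETS factors, stood in 12 of 33 (36.4%, against 16.6% of genes tested and 10.3% of all), and AAGATGG, for YY1, in 9 of 33 (27.3%, against 6.80% and 5.84%). These letters can overlap at AAG, but no ETS match overlapped a YY1 match in a member. A match is letters only and does not show binding.

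The 30 bases around the NRF1 letters, in capitals, are shown for the member of each complex that held them and was highest in CPM. The windows are chr5:218144-218173 on the plus strand for SDHA, chr22:29767351-29767380 on the plus strand for UQCR10 and chr21:33915809-33915838 on the minus strand for ATP5PO. In ATP5PO the letters stand on the opposite strand, so the capitals printed are their reverse complement. The letters are centred 162, 4 and 20 bases before the start site.
SDHA: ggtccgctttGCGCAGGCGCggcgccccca
UQCR10: gtcggccccaGCGCAGGCGCggtggcgcga
ATP5PO: acgccaacgcGCGCGTGCGCccttgcgcgt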

How the data were processed

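RNA was sequenced in 9 libraries, 3 each of HEK293T lines with WT, G245S or R273H p53. The authors trimmed reads with fastp 0.24.0, aligned them with STAR 2.7.11 to GRCh38, removed duplicates by molecular identifier and counted with featureCounts (Subread 2.1.1), by strand, on exons and 3′ UTRs, sharing multi-mapping reads as fractions. These expected counts were deposited with no scaling, and were rounded to whole numbers for the fits. The authors also deposited 9 columns of CPM, scaled to library size, which were not used.

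Members, gene lists and comparisons were chosen with earlier results of these data known. Samples were grouped by their titles. Genes were filtered with filterByExpr, scaled by TMM and tested in edgeR 4.0.16 (R 4.3.3) by quasi-likelihood, and p was adjusted by the Benjamini-Hochberg method over every gene tested, with 0.05 as the threshold. SE is that of the log2 fold change. CPM used TMM factors over all 9 libraries, and transcript lengths came from GENCODE. DESeq2 1.42.0 was an alternative. Scripts were tested on simulated counts. Intervals cover only the spread between these replicates. A depth of 3 counts corresponded to 0.310 to 0.410 CPM in the fitted libraries.

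Full statistics were given for members past a threshold and for the 2 highest and 2 lowest fold changes of each comparison, and levels in each library for these, for the highest and lowest member per kb of each complex, and for the paralogs of the c ring and UQCRH. UQCC1 and UQCRHL were also singled out for not overlapping, after their values were seen. Python 3.11.15, pandas 2.3.3 and matplotlib 3.10.9 made tables and plots.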

Additional observations from a re-analysis of the deposited data

How the results depend on the processing

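Over 17 alternatives for each mutant against WT and 14 between the mutants (scaling, filters, DESeq2, 1 fit of all groups, added pseudogene counts, the choice of WT libraries and each replicate left out), and in the fits reported, 0 of 2244 tests of members passed, and the lowest adjusted p of any member was 0.283. The alternatives that put WT replicate 3 in place of another, and the replicate block with all 3 WT libraries, were added after the data were seen. Members at an unadjusted p under 0.05 rose from 0 to at most 6 (G245S without G245S replicate 2). Leaving out 1 replicate moved the complex V median in G245S between −0.072 and 0.15 and the complex III median in R273H between −0.078 and 0.11, where the ends came from leaving out WT replicate 2 and WT replicate 1. With WT replicate 3 in place of WT replicate 2, the complex V median in R273H was −0.10. Of 192 values of named members, 6 turned sign: with 1 replicate left out, SDHAF4 ranged from −0.39 to 0.065 in G245S and −0.34 to 0.11 in R273H and ATP5MG from −0.24 to 0.021 in R273H, the turn coming without WT replicate 1, and ATP5MGL from −0.55 to 0.099 between the mutants, turning without G245S replicate 1. SDHAF4 turned to 0.0022 in R273H with the replicate block and ATP5MGL to −0.076 in R273H with WT replicate 3 in place of WT replicate 1. Beyond these choices of libraries, the cause was not tested.

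Counts of all genes called moved more. In G245S they were 20, and 144 without a filter, 76 with the replicate block, 74 with that block and all 3 WT libraries, 10 with all 3 WT libraries, 3 with WT replicate 3 in place of WT replicate 2, and 10 to 30 with 1 replicate left out. In R273H they were 22, and 93 without a filter, 47 with the replicate block, 12 with that block and all 3 WT libraries, and 13 or 4 with WT replicate 3 in place of WT replicate 1 or WT replicate 2. Between the mutants they were 0, and 125 without a filter, 59 with the replicate block, 1 with DESeq2, and 0 to 3 with 1 replicate left out. No source says that the replicate numbers mark pairs, so the block is only an alternative. In their deviations from the group means, same-numbered libraries correlated between −0.179 and 0.268. Differently numbered libraries correlated between −0.259 and 0.233. The WT mean used here included all 3 WT libraries. With 2 WT libraries fitted, the median SE of a member was 0.11 on the log2 scale in G245S.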
